A study of Mus musculus with 4 samples.

Results

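Heart transcription factors are the DNA-binding proteins that specify heart progenitors and divide the heart tube into chambers, valves and conduction tissue. The genes followed here were chosen by name, with earlier results of these data known. They are Nkx2-5, Tbx5, Tbx20, Tbx2, Tbx3, Gata4, Gata5, Gata6, Hand1 and Hand2. They had 24 probe sets, each listed with 1 gene symbol, out of 45037 probe sets tested, and made up 10 of the 18193 genes with such a probe set. Expression was measured on Affymetrix arrays in whole mouse embryos at embryonic day 9.5. The 2 null arrays held RNA pooled from 6 embryos that lacked Cop1, whose protein, a ubiquitin ligase, sends several transcription factors to the proteasome. The 2 control arrays held RNA pooled from 6 embryos that were wild type or carried 1 disrupted copy, although their titles call them wild type. Each pool was divided into 2 portions, 1 per array, so the 2 arrays of a group are portions of the same RNA. All p-values below therefore measure the spread between portions and not the spread between embryos. Which allele, strain and sex the embryos had is not given in the sources used here.

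NKX2-5, GATA4 and TBX5 bind one another and switch on genes of the contracting chambers, and GATA5 and GATA6 overlap with GATA4 in heart mesoderm and in gut endoderm. TBX2 and TBX3 are repressors that keep chamber genes off in the atrioventricular canal and the future conduction system, and TBX20 restrains Tbx2 in chamber muscle. HAND1 and HAND2 are basic helix-loop-helix factors of the left and the right ventricle. None of these genes is confined to the heart, as Tbx5, Tbx2, Tbx3 and Hand2 also mark limb buds, Hand2 the pharyngeal arches and autonomic neurons, and Gata4 and Gata6 the foregut. In RNA from whole embryos, fewer cells of a type and less RNA per cell cannot be told apart.

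The members did not move as a block. Gata6 rose and Tbx2, Hand2 and Tbx20 fell, each gene being read from its brightest probe set (highest mean of the 4 arrays). The other 6 genes had no call on that probe set, a call being an adjusted p under 0.05 in limma together with at least a 1.5-fold difference. Over all genes 3.58% rose and 8.06% fell, 11.6% together, against 4 of 10 members (40%). These shares are not matched for level. The probe sets of 5057 of the 18193 genes were among the dimmest 40% of all probe sets, against 0 of the 10 members. Over all probe sets 6.76% were called higher and 6.96% lower, 13.7% together, against 2 higher and 4 lower among the 24 member probe sets (25%). The 6 called probe sets belonged to 5 genes, since Tbx3 had a called probe set that was not its brightest. An adjusted p under 0.05 without the fold limit was reached by 12 of 24 member probe sets (50%) and by 32.7% of all probe sets. The median difference, null minus control, was 0.11 on the log2 scale over the member probe sets and 0.01 over all probe sets, and the median size of a difference was 0.34 and 0.18. The median turned to -0.06 over the 19 member probe sets outside the dimmest 40% of all probe sets. Over the 10 member genes it was -0.07, against -0.02 over all genes.

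**Figure D1:**
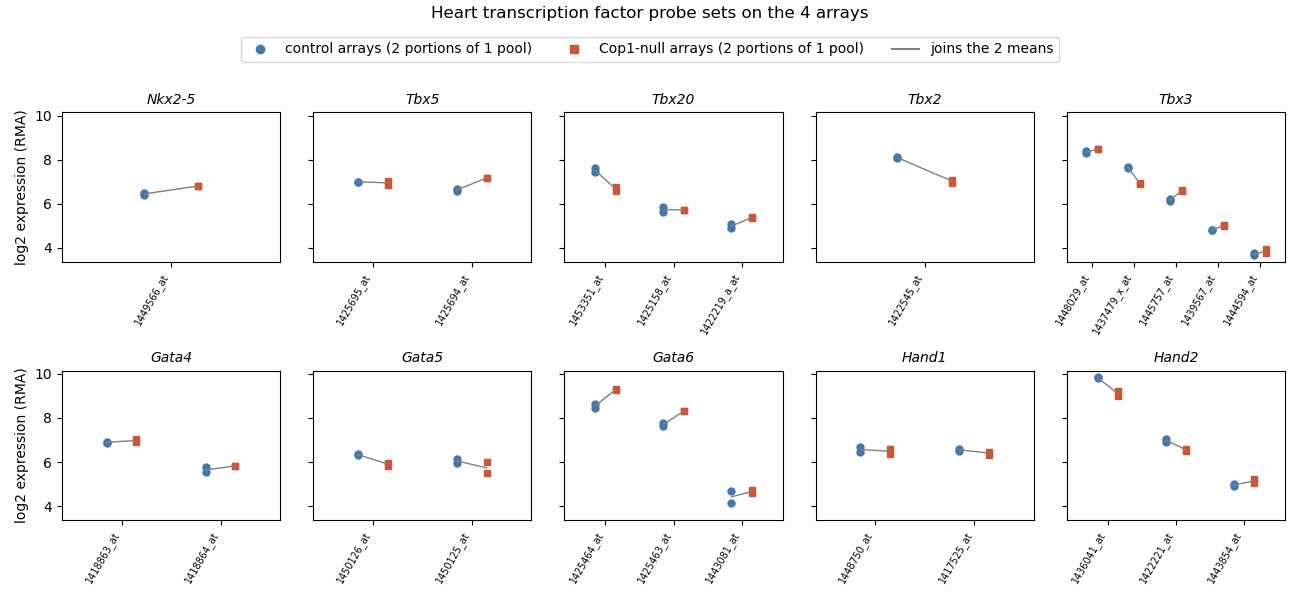
Log2 expression (RMA, vertical axis) of the 24 probe sets of the 10 genes on the 4 arrays, with circles for the 2 control arrays, squares for the 2 null arrays and a line joining the group means; probe sets run from the brightest to the dimmest within each gene. Tbx2 drops from a mean of 8.09 to 7.03, the 2 brighter Gata6 probe sets climb, and the probe sets of Tbx20, Tbx3 and Hand2 slope in different directions.

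Tbx2, the repressor of chamber genes in the atrioventricular canal, showed the greatest difference of the 10 genes. Its only probe set, 1422545_at, read 8.06 and 8.12 (log2 expression) in the control portions against 6.96 and 7.10 in the null portions. Both null portions thus lay about a log2 unit below both control portions. The means were 8.09 ± 0.04 and 7.03 ± 0.10 (SD, n = 2 portions), and Tbx2 fell by 1.06 on the log2 scale (SE 0.08, 95% interval -1.26 to -0.86), or 2.08-fold (limma, adjusted p = 0.00143). It was the only member past a fold of 2. Its call held when any 1 of the 4 arrays was left out.

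Tbx3, the close relative of Tbx2 and the next gene to Tbx5 on chromosome 5 in the RefSeq annotation, was read by 5 probe sets that disagreed. The brightest, 1448029_at, read 8.30 and 8.39 in the control portions against 8.46 and 8.49 in the null portions. These groups did not overlap, but the difference was small and had no call (0.13, 95% interval -0.05 to 0.30, limma, adjusted p = 0.222). In contrast 1437479_x_at read 7.66 and 7.64 in the control portions against 6.93 and 6.89 in the null portions. This probe set fell by 0.74 on the log2 scale (SE 0.06), or 1.67-fold (limma, adjusted p = 0.00198). A further probe set, 1445757_at, read 6.12 and 6.22 in the control portions against 6.58 and 6.62 in the null portions, a difference of 0.43 in the opposite direction with an adjusted p of 0.0104 (limma) that stayed under the fold limit. The remaining 2 probe sets were among the dimmest 40% of all probe sets and differed by 0.20 and 0.13. In Affymetrix names the ending _x_at marks probes that can also bind other transcripts, so the fall rests on a probe set of lower specificity.

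Tbx20, a T-box factor of chamber muscle and endocardium, fell on its brightest probe set. This probe set, 1453351_at, read 7.42 and 7.61 in the control portions against 6.60 and 6.75 in the null portions. The null portions lay below both control portions, and the fall of 0.84 on the log2 scale (SE 0.10, 95% interval -1.10 to -0.59) was 1.79-fold (limma, adjusted p = 0.00426). The other 2 probe sets of Tbx20 did not share it. At 1425158_at the control arrays read 5.61 and 5.85 and the null arrays 5.73 and 5.73, which lie between the control values. At 1422219_a_at, among the dimmest 40% of probe sets, the control arrays read 5.08 and 4.91 and the null arrays 5.41 and 5.35, a difference of 0.38 in the opposite direction (limma, adjusted p = 0.0243).

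Tbx5, the T-box activator of the atria, the left ventricle and the forelimb, had 2 probe sets of nearly equal level and different behaviour. The brighter by a small margin, 1425695_at, read 7.01 and 7.00 in the control portions against 6.87 and 7.02 in the null portions, so the groups overlapped (-0.06, 95% interval -0.26 to 0.14). The other, 1425694_at, read 6.67 and 6.60 in the control portions against 7.17 and 7.17 in the null portions. That difference of 0.53 (SE 0.07), 1.45-fold, had an adjusted p of 0.00485 (limma) and lay just under the fold limit. Which of the 2 probe sets stood for Tbx5 changed when a control array was left out, giving 0.57 without control replicate 1 and 0.50 without control replicate 2.

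The disagreement between probe sets of a gene was tested by a limma fit of each probe set minus the mean of the others of its gene, a test added after the values had been seen. Among all 25762 probe sets of 9010 genes with several probe sets, 14.5% differed from the others of their gene by at least 1.5-fold at an adjusted p under 0.05, against 7 of 22 member probe sets (31.8%). The 7 belonged to Tbx3, Tbx20, Tbx5 and Hand2. Tests within a gene share values, so the 7 are not independent. For a gene with 2 probe sets, such as Tbx5, they are 1 test counted with both signs. No share by gene over all genes was computed. Tbx3 1437479_x_at lay 0.96 log2 units below the other 4 Tbx3 probe sets in its null minus control difference (limma, adjusted p = 0.00108), and Tbx20 1453351_at lay 1.03 below the other 2 (limma, adjusted p = 0.00141). The 2 Tbx5 probe sets differed from each other by 0.59 (limma, adjusted p = 0.00677), 1.51-fold and so barely past the limit, and kept this call in 2 of the 4 fits that left out 1 array. Hand2 1436041_at, 0.59 below the other 2 Hand2 probe sets (limma, adjusted p = 0.0166), also kept its call in 2 of these 4 fits. Hand2 1443854_at lay 0.75 above the other 2 (limma, adjusted p = 0.0045), and 0.65 to 0.85 above them with each array left out. It was among the dimmest 40% of probe sets. Without these, the remaining 2 Hand2 probe sets differed by 0.29 without a call (limma, adjusted p = 0.119). Tbx3, Tbx20 and Tbx5 each still had a called probe set. Which transcripts or transcript ends the probe sets of these genes read was not analysed here, so different transcripts and conflicting readings of the same transcript cannot be told apart. The probe sets of Gata4, Gata5, Gata6 and Hand1 had no call in this test with all 4 arrays. Gata6 1443081_at lay 0.43 below the other 2 Gata6 probe sets. With an array left out this ranged from 0.15 (without control replicate 2) to 0.71 (without control replicate 1), the last past the fold limit. With control replicate 2 left out the count of member probe sets called was 4, and with control replicate 1 left out it was 8.

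**Figure D2:**
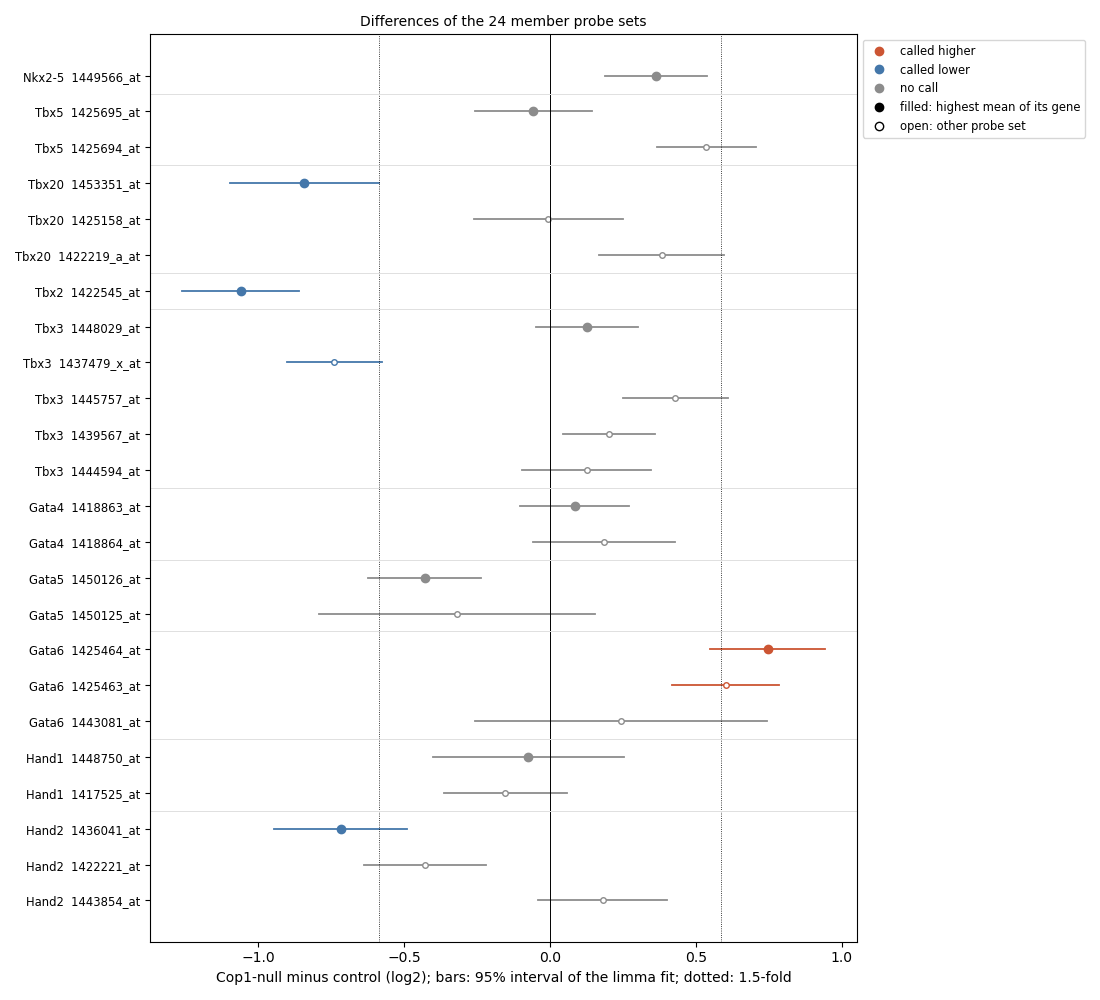
Difference between the null and the control arrays (log2, horizontal axis) for the 24 probe sets, with the 95% interval of the limma fit as bars, dotted lines at 1.5-fold and filled symbols for the brightest probe set of each gene. Tbx2 at -1.06 lies farthest to the left and Gata6 1425464_at at 0.75 farthest to the right, while the probe sets of Tbx3 and Tbx20 fall on both sides of 0.

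Nkx2-5, the homeobox gene that marks heart progenitors from their earliest stage, was slightly higher in the null pool without a call. Its only probe set, 1449566_at, read 6.40 and 6.49 in the control portions against 6.80 and 6.82 in the null portions. The groups did not overlap, as was the case for 65.3% of all probe sets and for 18 of the 24 member probe sets. The difference of 0.36 (SE 0.07, 95% interval 0.19 to 0.54), 1.29-fold, had an adjusted p of 0.0156 (limma).

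Of the GATA zinc finger genes, Gata6 rose. Its brightest probe set, 1425464_at, read 8.61 and 8.47 in the control portions against 9.27 and 9.30 in the null portions, and 1425463_at read 7.64 and 7.76 against 8.30 and 8.30. On both probe sets each null portion lay above each control portion. The rises were 0.75 (SE 0.08, 1.68-fold, limma, adjusted p = 0.00297) and 0.60 (SE 0.07, 1.52-fold, limma, adjusted p = 0.0044). The second rise dropped under the fold limit, to 0.54, when control replicate 1 was left out. The third Gata6 probe set, 1443081_at, was dim, with 4.14 and 4.70 in the control portions against 4.73 and 4.60 in the null portions, and its groups overlapped.

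Gata4, the best known heart member of the family, had no call on either of its probe sets. At 1418863_at the control arrays read 6.92 and 6.86 and the null arrays 7.03 and 6.93, a difference of 0.08 (95% interval -0.10 to 0.27), and 1418864_at differed by 0.18 (95% interval -0.06 to 0.43). Gata5, which acts in endocardium and endoderm, was lower without a call, its brighter probe set 1450126_at reading 6.34 and 6.34 in the control portions against 5.98 and 5.84 in the null portions. This difference of -0.43 (SE 0.07) had an adjusted p of 0.013 (limma) and was 1.35-fold. The other Gata5 probe set, 1450125_at, pointed the same way (-0.32), but its null portions, 5.49 and 5.98, were far apart and overlapped with the control portions, 5.95 and 6.15. Whether Gata6 differed from Gata4 or Gata5 in its response was not tested.

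Hand2, the bHLH gene of the right ventricle, pharyngeal arches, limb buds and autonomic neurons, was lower. Its brightest probe set, 1436041_at, read 9.80 and 9.84 in the control portions against 9.20 and 9.00 in the null portions. All null values were below all control values, and Hand2 fell by 0.72 on the log2 scale (SE 0.09, 95% interval -0.95 to -0.49), or 1.64-fold (limma, adjusted p = 0.00491). At 1422221_at the control arrays read 7.05 and 6.92 and the null arrays 6.50 and 6.61, a difference of -0.43 with an adjusted p of 0.0163 (limma) that missed the fold limit. The third probe set, 1443854_at, was dim and read 4.91 and 5.01 against 5.06 and 5.22 in the same order. It differed by 0.18 without a call (limma, adjusted p = 0.183).

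Hand1, the bHLH gene of the left ventricle and of extraembryonic tissue, had no call. At 1448750_at the control arrays read 6.44 and 6.69 and the null arrays 6.61 and 6.37. At 1417525_at the control arrays read 6.60 and 6.51 and the null arrays 6.48 and 6.33. The first pair of groups overlapped and the second did not, with differences of -0.07 (95% interval -0.40 to 0.25) and -0.15 (95% interval -0.36 to 0.06). The direct difference between Hand1 and Hand2 was not tested.

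Promoters are shown for Hand2 and Tbx20, the 2 genes with a called fall among the 4 members (with Nkx2-5 and Gata5) that had an entry in the RefSeq promoter table of GRCm38.p6. Each runs 5′ to 3′ on the strand of its gene over 300 bases, from 250 before the annotated start to 50 after it. Hand2 lies on the plus strand at chr8:57320733-57321032 and Tbx20 on the minus strand at chr9:24774254-24774553. Capitals mark every match, on either strand, to 8 motifs: ACGTG (core of the hypoxia response element), TGANTCA (AP-1), CCGGAA (ETS core), AGATAA (the first form of a GATA site) and TGATAA (the second form of that site). The others were CANNTG (E-box, bound by HAND proteins among others), TCACACC (T-box) and AAGTG (NK2).
Hand2: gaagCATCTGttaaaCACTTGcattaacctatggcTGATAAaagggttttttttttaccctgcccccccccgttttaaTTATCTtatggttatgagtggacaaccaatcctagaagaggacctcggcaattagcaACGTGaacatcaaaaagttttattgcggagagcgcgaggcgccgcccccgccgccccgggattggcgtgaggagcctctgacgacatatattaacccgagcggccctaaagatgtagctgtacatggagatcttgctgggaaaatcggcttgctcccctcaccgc
Tbx20: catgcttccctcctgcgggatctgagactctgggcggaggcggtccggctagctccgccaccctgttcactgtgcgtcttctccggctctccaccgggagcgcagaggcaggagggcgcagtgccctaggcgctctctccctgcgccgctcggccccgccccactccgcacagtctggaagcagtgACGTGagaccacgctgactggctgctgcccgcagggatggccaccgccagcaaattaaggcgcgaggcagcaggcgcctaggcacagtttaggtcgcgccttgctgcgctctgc

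The Hand2 promoter held a match to each of the 2 GATA forms, the first found in 11.2% and the second in 8.91% of 32544 different RefSeq promoters of this length. It also held 2 E-box matches, found in 72.3% of promoters, of which CACTTG overlaps the only match to AAGTG (46.3% of promoters). ACGTG occurred once in Hand2, beginning 115 bases before the start, and once in Tbx20, beginning 64 bases before it, and 19.7% of all promoters hold it. In Gata5 the palindrome CACGTG, 138 bases before the start, gave both strands' matches to ACGTG and an E-box. Nkx2-5 had a single E-box and no ACGTG. None of these 4 promoters held a match to AP-1 (7.79% of promoters), ETS (4876 of 32544 promoters) or T-box (3.95%) letters. These matches are letters in a window, and no binding was measured.

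The protein-coding neighbours of the members were read from the RefSeq gene order. Of 15 measured neighbours that were no members, 2 rose and 0 fell (13.3% called, near the 11.6% of all genes), with a median difference of 0.02. Both of the neighbours that rose flank Nkx2-5, and both were named after their values were seen. Bnip1, a gene of vesicle fusion at the endoplasmic reticulum, read 8.49 and 8.60 in the control portions against 9.21 and 9.26 in the null portions, 1.61-fold higher (limma, adjusted p = 0.00324), a call that was lost with centring on the poly-A spikes, RNAs added in known amounts during labelling (0.43, limma, adjusted p = 0.0989). Kifc5b, a kinesin gene, read 5.55 and 5.41 against 7.04 and 7.16, 3.07-fold higher (limma, adjusted p = 0.000798). Kifc5b belongs to a family of similar genes whose transcripts its probes may share. Sap30l, next to Hand1 and also named after its value was seen, was 1.49-fold lower, just under the fold limit (limma, adjusted p = 0.00835). It was called lower without null replicate 1 (-0.66), without control replicate 1 (-0.63) and with spike centring (-0.83). Tbx4, the neighbour of Tbx2, differed by 0.09, and Med13l and Rbm19, which flank the Tbx3 and Tbx5 pair, by 0.48 and -0.42 without a call.

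Other factors and cofactors of heart development were called in both directions. Of 35 measured genes of this list, 2 rose and 4 fell (17.1% called, against 3.58% of all genes higher and 8.06% lower, 11.6% together), with a median difference of 0.10 against -0.02 over all genes. By an adjusted p under 0.05 in limma alone, 11 of the 35 were higher and 5 lower, against 12.0% and 21.8% of all genes. The Iroquois genes Irx5 (0.64) and Irx1 (0.59) rose. Eya1 (-0.99), a cofactor of the second heart field, Myocd (-0.79), the SRF coactivator of muscle genes, Shox2 (-0.68), the factor of the sinus node, and Smarcd3 (-0.63), a subunit of the chromatin remodelling complex that works with TBX5 and GATA4, fell. The other probe set of Myocd and that of Shox2 had no call. With the mean over the probe sets of each gene, 3 genes of this list rose and 1 fell. Myocd missed the threshold without control replicate 1 (-0.66), control replicate 2 (-0.92) or null replicate 1 (-0.55). Smarcd3 missed the limits without control replicate 2 (-0.61) or null replicate 1 (-0.53), Irx1 without control replicate 1 (0.56) or null replicate 2 (0.58), and Irx5 without control replicate 1 (0.58). Among 25 relatives from the T-box, GATA, NK2, HAND and E-protein families, 0 rose and 1 fell, Tbx15 (-0.82), whose other probe set had no call. By an adjusted p under 0.05 in limma alone, 2 of these relatives were higher and 4 lower.

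Signals that induce the heart fields went both ways. Of 29 measured genes, 4 rose and 4 fell (27.6% called, against 11.6% of all genes), with a median of 0.08. By an adjusted p under 0.05 in limma alone, 7 of the 29 were higher and 7 lower, against 12.0% and 21.8% of all genes. Bmp2 (1.31) and Bmp4 (1.01), ligands that induce Tbx2 and Nkx2-5 in the heart, Edn1 (0.67), the endothelin that acts upstream of Hand2 in the pharyngeal arches, and Smad7 (0.64), an inhibitor induced by BMP and TGF-beta signals, rose. Wnt5a (-0.95), Nrg1 (-0.93), the ligand of trabecular growth, Notch1 (-0.81) and Wnt2 (-0.68) fell. The Nrg1 probe set was among the dimmest 40% of all probe sets, and the other Notch1 probe set had no call. With the mean over the probe sets of each gene, 4 genes of this list rose and 2 fell. Bmp4 read 9.07 and 9.03 in the control portions against 10.08 and 10.05 in the null portions. Bmp2 missed the threshold without null replicate 2 (1.21).

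Genes described as targets of the members changed in both directions too, with 5 rises and 2 falls among 30 (23.3% called, against 11.6% of all genes) and a median of 0.16. By an adjusted p under 0.05 in limma alone, 10 of the 30 were higher and 6 lower, against 12.0% and 21.8% of all genes. The natriuretic peptide genes Nppb (1.68) and Nppa (1.49), which TBX2 represses and NKX2-5, GATA4 and TBX5 activate, Myh7 (2.29-fold), the slow myosin heavy chain, and Ankrd1 (1.12), a stress-responsive muscle gene, rose. Nppa read 9.40 and 9.39 in the control portions against 10.87 and 10.91 in the null portions. The fifth rise, named after its value was seen, was that of Cdkn1a (0.65), the p21 gene that TBX2 and TBX3 repress. Its other probe set had no call. With the mean over the probe sets of each gene, 6 genes of this list rose and 1 fell. Myl2 (-0.80), the ventricular myosin light chain, and Has2 (-0.64), the hyaluronan synthase of the cushions, fell, the latter missing the threshold without control replicate 2 (-0.53) or null replicate 2 (-0.56).

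Markers of the cell types in which the members act are given beside these results, and their part in them was not tested. All lists are of genes by their brightest probe set, and RMA gives no value of 0. The other probe sets of Has2, Tcf21 and Pitx1 had no call. Some genes without a call on the brightest probe set had others that were called. Named after their values were seen, they include Tcf12 (3 of its other 4), Atp2a2 (3 of its other 5) and Mga (2 of its other 4). Tnnt2 of the heart muscle list, also named after its values were seen, had 1 of its other 2 called. The direction of these calls is not given here. The counts of the lists stand beside 3.58% of all genes called higher and 8.06% called lower. The 20 heart muscle genes had a mean log2 level of 9.24 and 9.24 in the control portions against 9.08 and 9.06 in the null portions, with 1 rise, Myh7, 5 falls and a median difference of -0.07. The falls were those of Pln (-1.10), Smpx (-0.94), Myl2 (-0.80), Tnni1 (-0.75) and, named after its value was seen, Sln (-0.64). The brightest Sln probe set was among the dimmest 40% of all probe sets, and the other Sln probe set had no call. Counted by an adjusted p under 0.05 in limma alone, 2 of the 20 were higher and 8 lower, against 12.0% and 21.8% of all genes. The genes that met this but not the fold limit, named after their values were seen, were the sarcomere genes Tnnc1 (-0.57), Tnni3 (-0.44), Myl4 (-0.40) and Ttn (0.30). By the same adjusted p alone, endocardium had 0 higher and 2 lower of 8, and epicardium 2 higher and 3 lower of 8. Endocardium held 1 fall among 8 (Has2), with mean levels of 9.11 and 9.13 against 9.06 and 9.01. Epicardium held 2 among 8, Tcf21 (-1.08) and Lhx2 (-0.64), the latter under the fold limit without control replicate 2 (-0.58), with mean levels of 8.10 and 8.12 against 7.97 and 8.00.

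For the other places of expression, the limb and lateral plate list held 2 rises and 1 fall among 12 genes, with mean levels of 8.04 and 8.02 in the control portions against 8.08 and 8.05 in the null portions. Pitx1 (-0.79), a hindlimb factor, fell, and Alx4 (0.62) rose but lost its call without control replicate 1 (0.72), control replicate 2 (0.51) or null replicate 2 (0.49). Prrx1, a limb mesenchyme factor, rose on its brightest probe set (1.51), whereas 3 of its other 5 probe sets were called lower. Without either null replicate a different probe set stood for Prrx1, and the difference turned to -1.44 or -1.43. The pharyngeal arch list held 1 rise, Edn1 (0.67), and 2 falls, Dlx1 (-1.06) and Gsc (-0.90), among 10, with mean levels of 7.63 and 7.63 against 7.47 and 7.50. In autonomic neurons 1 of 8 fell, Insm1 (-1.14), with a median difference of -0.47 and mean levels of 7.75 and 7.77 against 7.41 and 7.37. By an adjusted p under 0.05 in limma alone, 0 of these 8 were higher and 5 lower, against 12.0% and 21.8% of all genes. Such counts were 2 higher and 4 lower both for the 12 limb and lateral plate genes and for the 10 pharyngeal arch genes.

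Foregut and liver endoderm, where Gata4 and Gata6 are also active, held 2 rises, Sox17 (1.23) and Hhex (1.10), and 2 falls, Ttr (-1.53) and Afp (-1.01), among 11 genes, with mean levels of 7.63 and 7.66 in the control portions against 7.61 and 7.56 in the null portions. Sox17 also marks endothelium. By an adjusted p under 0.05 in limma alone, 2 of these 11 genes were higher and 3 lower, against 12.0% and 21.8% of all genes. In the yolk sac and trophoblast list, which does not include Afp or Ttr, 4 of 9 were higher and 0 lower by that measure. The yolk sac and trophoblast list held 1 rise among 9, Cubn (1.45), an endocytic receptor gene. Cubn missed the threshold without null replicate 1 (1.42) or null replicate 2 (1.48). It read 5.63 and 4.88 in the control portions against 6.73 and 6.68 in the null portions, and its other probe set had no call. Mean levels of this list were 5.86 and 5.75 against 6.01 and 6.04, and 4 of the 9 genes were among the dimmest 40% of probe sets. Over all 12 lists, 176 different measured genes that were no members held 16 rises and 23 falls (22.2% called, against 11.6% of all genes), with a median of -0.01. The lists, like the members, were chosen with earlier results of these data known, so these shares are descriptive.

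**Figure D3:**
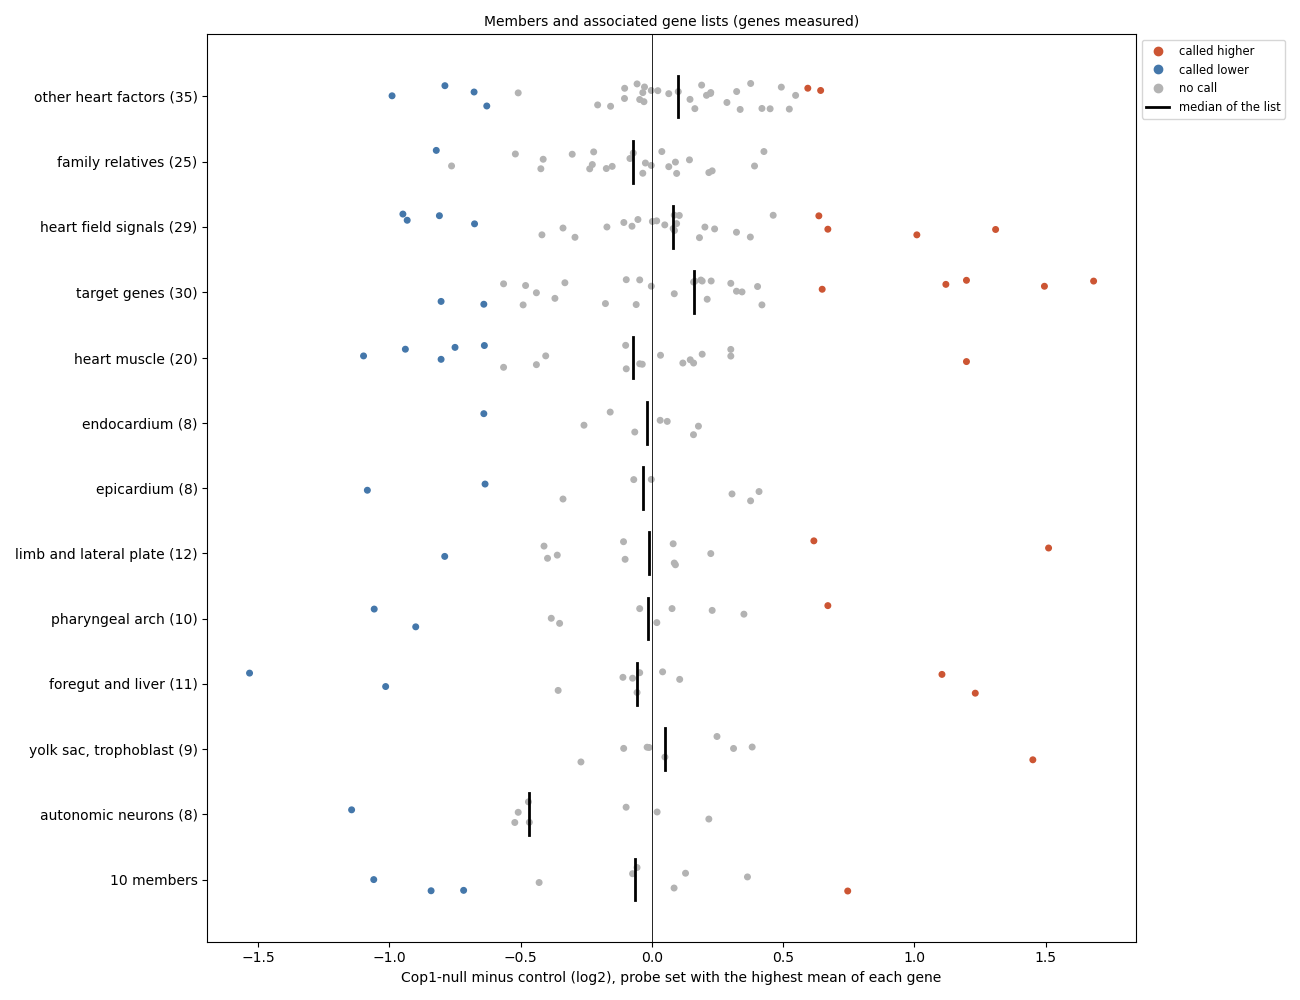
Difference between the null and the control arrays (log2, horizontal axis) for each gene of the 12 lists and for the 10 members, by the brightest probe set of each gene; a black bar is the median of a list and colours mark calls. Most medians lie within 0.16 of 0 while single genes reach 1.68 (Nppb) and -1.53 (Ttr), and the autonomic neuron list has the lowest median, -0.47.

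Cop1 itself read 11.35 and 11.26 in the control portions against 9.67 and 9.77 in the null portions, and fell by 1.58 on the log2 scale (limma, adjusted p = 0.000728). Whether its probe set lies in the deleted part is not known here. Over all tested probe sets, which are not independent, Pearson's r was 0.998 between portions of a pool and 0.980 to 0.982 across the genotypes.

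The calls of the members were next compared across settings. Leaving out any 1 array kept every one of the 6 calls except that of Gata6 1425463_at. When the arrays were centred on the poly-A spikes, the median of all genes moved from -0.02 to -0.28, and the 24 member probe sets held 0 rises and 6 falls. With this scaling Gata6 differed by 0.49 and 0.35 on its 2 brighter probe sets, and Gata5 (-0.69) and the second Hand2 probe set (-0.68) passed both limits. Relative to the median of all genes, the differences are the same under either scaling. The spike medians were 7.23 and 7.49 in the control portions against 7.52 and 7.71 in the null portions, so the pools differed by 0.26 and the control portions by 0.26 as well. When a gene was represented by the mean over its probe sets, Tbx2 was the only member with a call, and Gata6 (0.53), Hand2 (-0.32) and Tbx20 (-0.15) fell short of the limits.

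**Figure D4:**
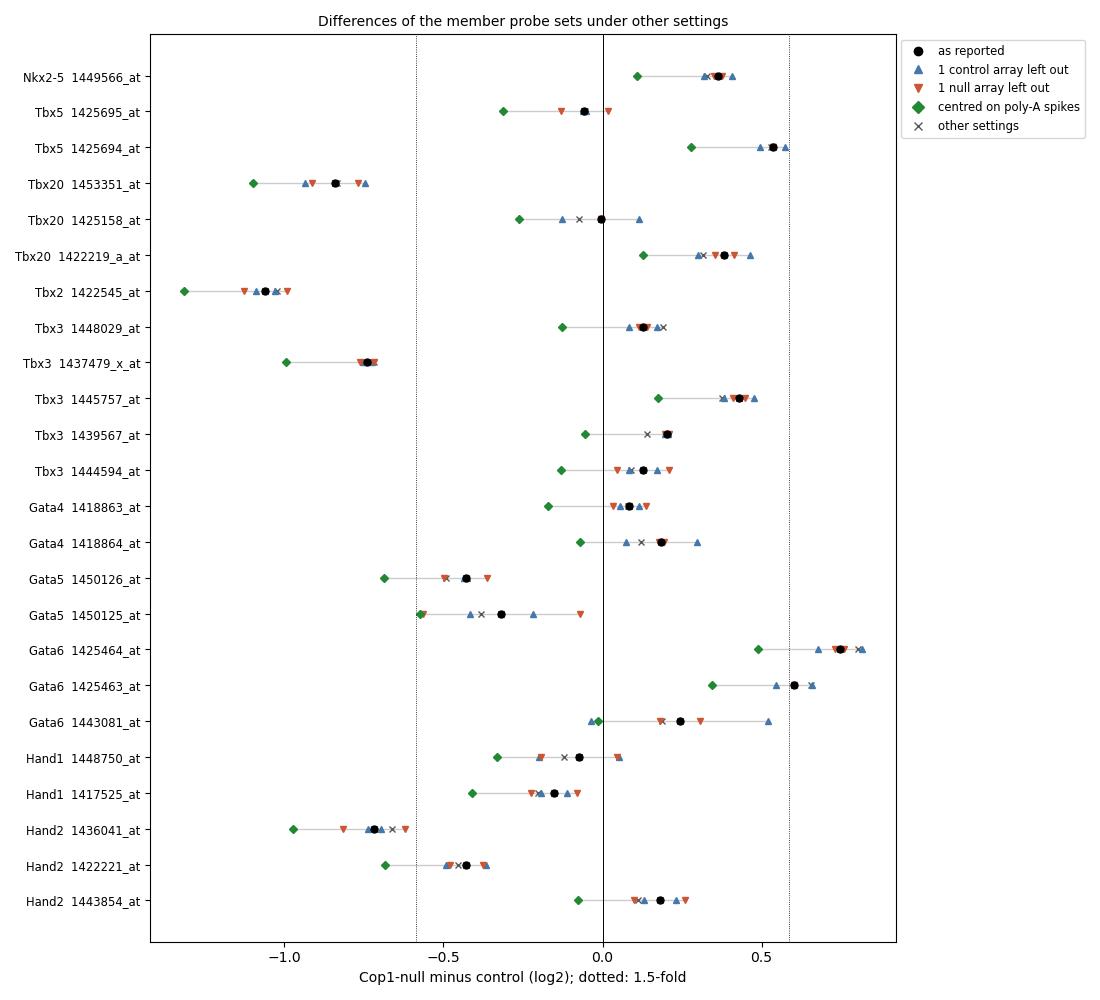
Difference between the null and the control arrays (log2, horizontal axis) for the 24 probe sets as reported (black circles), with 1 array left out (triangles), centred on the poly-A spikes (diamonds) and under the other settings (crosses). The spike-centred values lie to the left of all others for nearly every probe set, and Tbx2, Tbx20 1453351_at, Tbx3 1437479_x_at and Hand2 1436041_at stay beyond the lower dotted line of 1.5-fold under every setting drawn.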

How the data were processed

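The authors deposited 1 table of log2 expression values for the 4 arrays. Per the submitters' processing notes it came from RMA (R package affy), and neither version nor probe mapping is given in the sources used here. RMA gives all arrays the same distribution of probe intensities, so a change in total RNA leaves no trace. Values were used as deposited. Of 45101 probe sets, 64 controls were left out of the tests. Platform annotation named 34945 of the 45037 tested probe sets with 1 symbol, 932 with several (unnamed here), and does not list 9160. All 10 members matched the RefSeq table by gene number.

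Null and control arrays were compared with limma 3.58.1 in R 4.3.3 (lmFit, eBayes, two-sided, Benjamini-Hochberg over 45037 probe sets). A call needs an adjusted p under 0.05 and at least 1.5-fold. Array number limits the precision. Members and lists were chosen with earlier results of these data known. Named are all members, Cop1, and up to 4 called genes per direction and list with the largest differences; others are marked in the text. No gene was named for a like pattern, since the arrays hold 1 contrast. Alternatives were another scaling, filter, variance prior, block, fold limit, gene summary, and each array left out.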

Additional observations from a re-analysis of the deposited data

How the results depend on the processing

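Of 211 member probe set differences recomputed under the alternatives, 194 kept their direction and their side of the limits, 3 lost a call, 2 gained a call and 12 changed sign. Of 469 differences of members and named list genes, taken as genes, 418 kept both, 39 lost a call, 1 gained a call and 11 changed sign. None of the 12 had a call. With poly-A spike centring the sign turned for Tbx3 1448029_at (-0.13), 1439567_at (-0.054) and 1444594_at (-0.13), Gata4 1418863_at (-0.17) and 1418864_at (-0.072), Gata6 1443081_at (-0.014) and Hand2 1443854_at (-0.076). With each array left out in turn it also turned, over ranges of -0.13 to 0.018 for Tbx5 1425695_at, -0.20 to 0.051 for Hand1 1448750_at, -0.13 to 0.12 for Tbx20 1425158_at and -0.035 to 0.52 for Gata6 1443081_at. As genes, Tbx5 ranged from -0.13 to 0.57 and Prrx1 from -1.44 to 1.60 with an array left out, and they turned to 0.24 and -0.39 as the mean over their probe sets, since probe sets of these genes disagree.

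Leaving out each array gave 1 to 2 member probe sets called higher and 4 called lower, 2663 to 2936 and 2704 to 2992 over all probe sets, 1 member gene higher and 3 lower, 11 to 17 listed genes higher and 20 to 23 lower, and 4 to 8 member probe sets that differ from the others of their gene. Spike centring gave 0 member probe sets and 0 member genes higher, 1849 of all probe sets higher and 7168 lower, and 10 listed genes higher and 46 lower. A fold limit of 1.2 gave 6 member probe sets and 2 member genes higher, 6494 and 7566 of all probe sets, and 38 and 44 listed genes. A fold limit of 2 gave 0 member probe sets and 0 member genes higher, 1 and 1 lower, 1393 and 749 of all probe sets, 10 and 6 listed genes, and 1 member probe set that differs from the others of its gene. Repeated quantile normalization gave 4 of the latter. The mean over the probe sets of a gene gave 0 member genes higher, 1 lower and 15 listed genes lower.

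With the replicate number as a block, 2 member probe sets were called higher and 4 lower, as without it, and 3005 and 3092 over all probe sets. Portions with the same number shared little beyond it (correlation of deviations 0.06), and the block ended the calls of Myocd (adjusted p = 0.0737, limma) and Alx4 (adjusted p = 0.0509, limma). The arrays are portions of 2 pools, so no setting measures the spread between embryos, and 5 of the 24 member probe sets were among the dimmest 40%, where background limits what can be seen.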
